A study of Mus musculus with 6 samples.

Results

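Salivary acinar and demilune genes are 10 of the 23361 genes in the RNA-seq table of circumvallate and foliate (CV/Fol) taste cells of the mouse tongue. They were picked by gene symbol as Sbpl, Dcpp1, Dcpp2, Dcpp3, Smgc, Bpifa2, Pip, Amy1, Aqp5 and Bhlha15, with earlier results of these data known, so their values are given as a description and no member was tested. All 10 were in the table with a value above 0. Taste cells came from C57BL/6 mice aged 2 or 6 months, with no other treatment, allele or agent named for either age. The sample labels give 2 months for the younger mice, while the series' design text names 3 months in 1 place, and the labels were followed. Each age had 3 libraries, and the cells of 4 mice at 2 months and of 3 mice at 6 months were pooled for a library. To obtain the cells, enzyme was injected under the lingual epithelium, the epithelium was peeled off and cells were drawn from the papillae with a capillary pipette. Where a pair of values is given with no age, the first is that at 2 months. The table holds 1 FPKM value per gene and age (fragments counted relative to transcript length and to the number of fragments mapped), which is the authors' value over the 3 libraries of that age. There is therefore no SD for any value below, the spread between pools is unknown, and the depth behind each value is unknown too.

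Salivary glands are built of acini, clusters of secretory cells that release proteins and fluid, and of ducts that carry and modify the saliva. Serous acinar cells make watery, enzyme-rich secretion, mucous cells make mucins, and demilunes are caps of serous cells on mucous acini, best known from the sublingual gland. Minor serous glands of the tongue, the von Ebner glands, open into the trenches of the circumvallate and foliate papillae, so that gland and taste tissue lie side by side. In bulk RNA, fewer cells of a type and less RNA per cell cannot be told apart.

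Sbpl, Dcpp3 and Dcpp1, secreted products of a cluster on chromosome 17, had the highest values among the members. Smgc, Bpifa2 and Pip had the lowest. Sbpl was by far the most abundant member, with 146.8 FPKM in 2-month-old and 33.8 FPKM in 6-month-old mice, a 4.34-fold lower value in the older taste cells. Dcpp1, Dcpp3, Aqp5 and Amy1 were 1.25-fold to 1.57-fold lower at 6 months, and Dcpp2 was 2.26-fold higher. Smgc, Bpifa2, Pip and Bhlha15 averaged under 1 FPKM over both ages, and genes that averaged 1 FPKM or more are called expressed below.

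Sbpl, Dcpp1, Dcpp2 and Dcpp3 lie together on chromosome 17 of GRCm38, within 74.6 kb from 23880669 to 23955273. The related gene Sbp (spermine binding protein, known from the prostate) lies between Dcpp3 and Sbpl. Dcpp stands for demilune cell and parotid protein, and the Dcpp genes are tandem copies that encode small secreted proteins. Among their 513 coding positions aligned without a gap, 42 differed between the 3 copies. A stretch of 120 coding bases held 26 of these, and it is shown because reads can be told apart there. It lies at chr17:23882553-23882672 in exon 4 of Dcpp1, at chr17:23900488-23900607 in exon 3 of Dcpp2 and at chr17:23919141-23919260 in exon 3 of Dcpp3, all on the plus strand, and capitals mark the positions at which the copies differ.
Dcpp1: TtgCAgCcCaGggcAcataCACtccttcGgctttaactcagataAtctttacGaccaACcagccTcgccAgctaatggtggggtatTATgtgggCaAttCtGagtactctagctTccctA
Dcpp2: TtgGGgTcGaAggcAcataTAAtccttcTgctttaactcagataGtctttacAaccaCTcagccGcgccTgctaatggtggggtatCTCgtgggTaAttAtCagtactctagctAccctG
Dcpp3: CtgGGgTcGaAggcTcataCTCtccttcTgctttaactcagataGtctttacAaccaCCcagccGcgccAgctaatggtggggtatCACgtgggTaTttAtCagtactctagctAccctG

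Outside this stretch lay the smaller part of the positions at which the copies differ. Coding identity over the whole sequence, this stretch included, was 93.8% between Dcpp1 and Dcpp2 and 93.8% between Dcpp1 and Dcpp3. Between Dcpp2 and Dcpp3 it was 95.9%. Against Sbpl the Dcpp genes had an identity of 58.9% to 61.6%. Sbp and Sbpl form a second close pair, with 558 of 600 aligned coding bases identical (93.0%), and the coding sequence of Sbpl is longer, with 699 bases against 600. The gap-free stretch of 120 bases with the most differences between them had 5. In the separate alignment from which this stretch was taken, 51 of the 600 positions without a gap differed, and 99 positions had a gap. Differences were thus denser outside this stretch, and 5 is the most only among stretches that no gap interrupts. The stretch is shown because reads from it can be assigned to either gene by few bases, while the genes had very different values. It lies at chr17:23945177-23945296 on the plus strand in exon 4 of Sbp and at chr17:23953448-23953567 on the minus strand in exon 4 of Sbpl, with capitals at the differing positions.
Sbp: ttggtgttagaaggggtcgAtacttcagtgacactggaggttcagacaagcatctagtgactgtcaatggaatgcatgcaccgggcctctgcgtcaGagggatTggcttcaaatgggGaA
Sbpl: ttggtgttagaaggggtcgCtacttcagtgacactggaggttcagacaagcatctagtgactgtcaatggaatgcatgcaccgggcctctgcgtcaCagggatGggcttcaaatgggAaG

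How much transcript sequence each member shares with other genes was counted in windows of 50 and 100 bases of its GENCODE M21 transcript with the longest coding sequence, on either strand, since the read length is not given in the sources used here. Of the 50-base windows, 46.5% of Dcpp1, 43.0% of Dcpp2 and 46.1% of Dcpp3 also occurred in another gene, and so did 39.0% of Sbpl, where Sbp held all of them. With windows of 100 bases the shares were 19.9%, 21.7%, 26.3% and 18.7%. The split of reads between the Dcpp copies is thus uncertain, and their sum is the firmer quantity. Of the 50-base windows of Amy1 2.69% were shared, of those of Bhlha15 0.697%, of the 2928 of Smgc 44 (with Muc19), and of those of Aqp5, Bpifa2 and Pip 0.

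**Figure D1:**
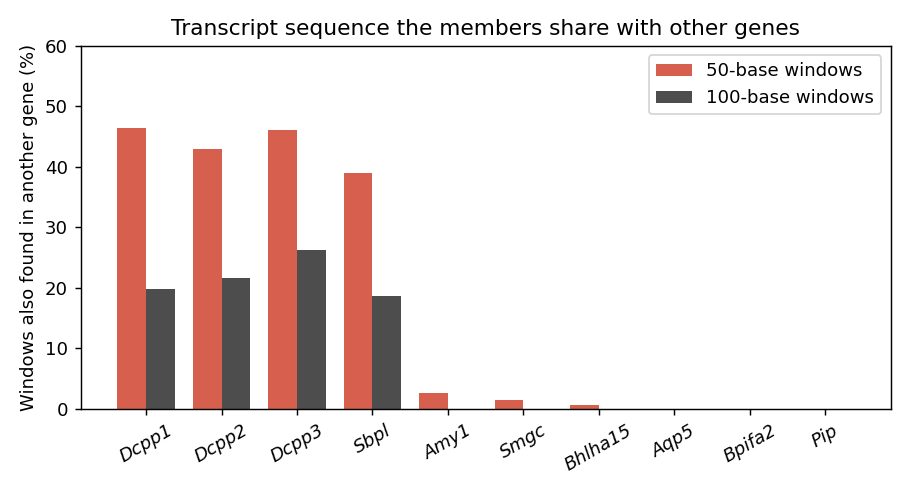
Percentage of transcript windows (vertical axis) of each member (horizontal axis) that also occur in a transcript of another gene, for windows of 50 bases (red) and 100 bases (grey). Dcpp1, Dcpp2, Dcpp3 and Sbpl stand at 39.0% to 46.5% for 50 bases, and the other members at 2.69% or less.

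Sbpl, a gene named for its likeness to spermine binding protein, is a 4-exon gene on the minus strand from 23953085 to 23955273. Its value was 146.8 FPKM at 2 months, above that of 97.4% of all genes in the table, and 33.8 FPKM at 6 months, above that of 88.7%. The difference of log2(FPKM + 1), 6 minus 2 months, was -2.09. Of the 12652 expressed genes, 71 had a larger difference downwards. Sbp, in contrast, was at 0.0412 FPKM at 2 months and at 0.0223 FPKM at 6 months, so that reads were assigned almost wholly to Sbpl at both ages.

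The value of Dcpp1 was 16.3 FPKM in younger and 13.0 FPKM in older mice, a log2 difference of -0.31. Dcpp3 had 20.2 and 13.4 FPKM, a difference of -0.56. Dcpp2, the least abundant copy, went the other way, with 1.45 FPKM in younger and 3.28 FPKM in older mice, a difference of 0.80. Dcpp1 and Dcpp3 thus had lower values and Dcpp2 a higher value in the older taste cells. The 3 copies together summed to 38.002 FPKM in younger and 29.66 FPKM in older mice, 1.28-fold lower, a log2 difference of -0.35. Within this sum Dcpp2 made up 3.81% at 2 months and 11.1% at 6 months, Dcpp3 53.2% and 45.0%, and Dcpp1 43.0% and 43.9%. With a pseudocount of 0.1 FPKM in place of 1, the difference of Dcpp2 was 1.12, which takes it past 2-fold. Sbpl stood at 3.86 times the Dcpp sum at 2 months and at 1.14 times at 6 months.

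**Figure D2:**
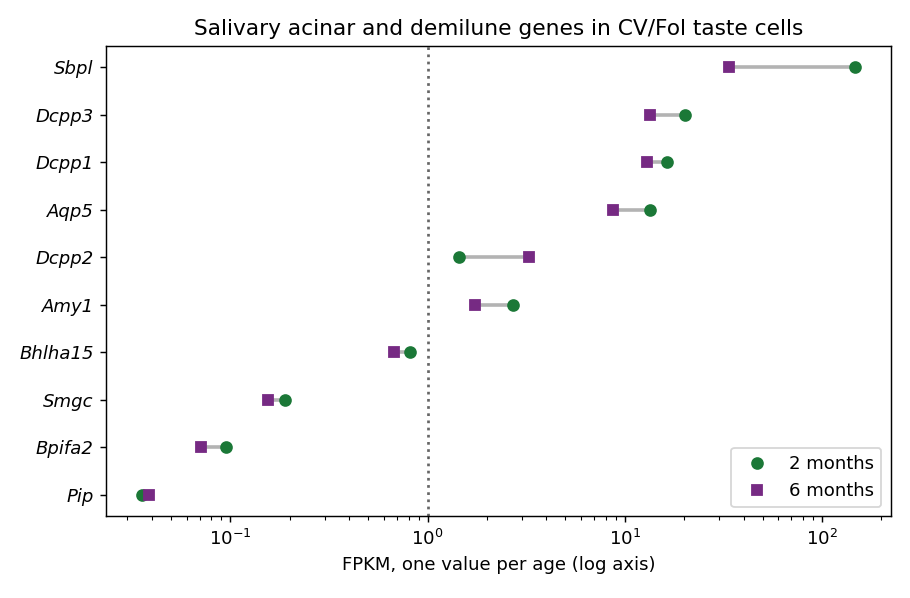
FPKM of the 10 members (horizontal axis, log scale) at 2 months (green circles) and 6 months (purple squares), 1 value per age, with a grey line joining the ages and a dotted line at 1 FPKM. Sbpl has the widest gap among members lower at 6 months, Dcpp2 and Pip are the members with a higher value at 6 months, and 4 members lie left of the dotted line.

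The other genes of this region differed less than Sbpl. Within 100 kb of the cluster the table has 12 other genes, of which 7 were expressed, and these differed by -0.52 to 0.18 on the log2(FPKM + 1) scale. Most of the neighbours are serine protease genes of the Prss family. Prss27 had 129.8 FPKM in younger and 111.4 FPKM in older mice, a level close to that of Sbpl at 2 months, with a difference of -0.22. Prss32, the neighbour with the largest difference, had 3.71 and 2.27 FPKM. Of these 7 genes, 0 reached 2-fold.

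**Figure D3:**
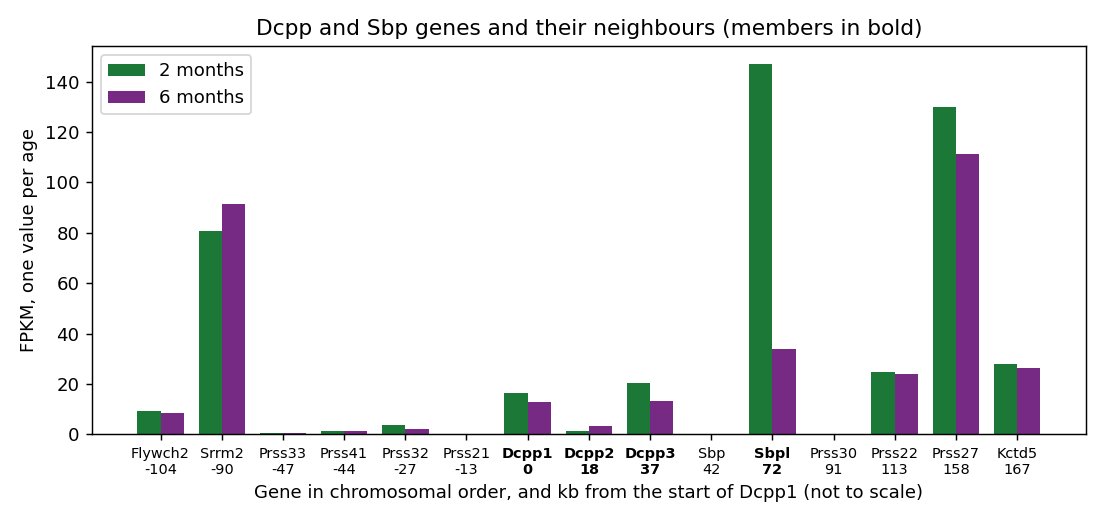
FPKM (vertical axis) at 2 months (green) and 6 months (purple) of Dcpp1, Dcpp2, Dcpp3, Sbpl (bold) and neighbouring genes in chromosomal order, with the distance in kb from the start of Dcpp1 under each name. Sbpl stands at 146.8 and 33.8 FPKM, while Prss27 and Srrm2 differ little in comparison and Sbp is near 0 between Dcpp3 and Sbpl.

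Promoters of the Dcpp copies are even more alike than their coding parts. The RefSeq promoter windows on GRCm38.p6, 250 bases before and 50 bases from an annotated transcript start, differed in 11 of the 294 positions that align without a gap. They are shown because the copies differ in listed value (16.3, 1.45 and 20.2 FPKM at 2 months for Dcpp1, Dcpp2 and Dcpp3) with so little difference in these windows. The split of reads behind these values is uncertain, as given above. The windows are chr17:23880626-23880925 for Dcpp1, chr17:23898472-23898771 for Dcpp2 and chr17:23917208-23917507 for Dcpp3, on the plus strand, and capitals mark positions at which the copies differ, those beside a gap included. The listed start lies 207 bases inside the gene range of Dcpp1, 39 bases inside that of Dcpp3 and at the gene start of Dcpp2.
Dcpp1: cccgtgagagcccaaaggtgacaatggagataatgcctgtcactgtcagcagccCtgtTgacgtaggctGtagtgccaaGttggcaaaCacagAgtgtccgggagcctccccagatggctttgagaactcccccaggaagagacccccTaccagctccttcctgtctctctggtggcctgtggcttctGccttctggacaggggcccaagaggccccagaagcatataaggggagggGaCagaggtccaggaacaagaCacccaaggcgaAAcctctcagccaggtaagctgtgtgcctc
Dcpp2: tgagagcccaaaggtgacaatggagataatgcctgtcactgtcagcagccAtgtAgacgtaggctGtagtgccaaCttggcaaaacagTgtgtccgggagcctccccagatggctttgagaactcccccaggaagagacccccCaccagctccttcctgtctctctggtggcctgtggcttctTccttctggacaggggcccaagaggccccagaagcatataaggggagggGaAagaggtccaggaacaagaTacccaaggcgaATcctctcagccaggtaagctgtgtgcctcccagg
Dcpp3: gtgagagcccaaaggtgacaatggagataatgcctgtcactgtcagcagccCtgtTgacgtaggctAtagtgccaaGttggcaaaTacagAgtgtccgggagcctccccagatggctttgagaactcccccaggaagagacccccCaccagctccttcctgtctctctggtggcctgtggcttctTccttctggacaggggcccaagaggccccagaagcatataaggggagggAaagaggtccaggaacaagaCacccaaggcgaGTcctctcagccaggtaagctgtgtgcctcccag

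Sbpl has a different upstream sequence, with an identity of 54.7% to 62.7% to the Dcpp windows. Its window, chr17:23955224-23955523 on the minus strand with the listed start at the gene start, holds the letters TATAAA, in capitals, which 13.6% of all 32851 promoter windows also hold on either strand.
Sbpl: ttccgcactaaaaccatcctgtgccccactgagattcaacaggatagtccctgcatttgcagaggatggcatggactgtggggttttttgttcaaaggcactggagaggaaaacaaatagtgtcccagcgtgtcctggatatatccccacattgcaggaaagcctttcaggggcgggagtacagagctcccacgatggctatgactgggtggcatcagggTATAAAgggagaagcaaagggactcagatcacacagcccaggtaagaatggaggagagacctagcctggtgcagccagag

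MIST1, the factor encoded by Bhlha15, is known to bind E-boxes, and the forms CAGCTG and CATATG were searched on both strands. Neither occurred in any of the 11 windows of the 10 members (Amy1 has 2 windows), against 16.3% and 3.91% of all windows. The general form CANNTG, which covers both, occurred in 8 of the 11, against 72.3% of all windows. TATAAA occurred in 4 of the 11, those of Sbpl, Smgc, Pip and 1 of the windows of Amy1.

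Bhlha15 encodes MIST1, a basic helix-loop-helix factor that shapes the secretory apparatus of serous and other exocrine cells. It lies on chromosome 5 from 144190286 to 144194441. Its value was 0.813 FPKM in younger and 0.677 FPKM in older mice, and the gene was not counted as expressed, with a log2 difference of -0.11. Both values are low beside those of other genes of secretory cell differentiation. Its annotated range abuts Tecpr1, which had 6.84 and 6.90 FPKM, and no source used here states strand-specific counting, so reads near that border cannot be assigned with certainty.

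Among 17 other factors of secretory cell differentiation, 15 were expressed, and 14 of these had a lower value in older mice, with a median difference of -0.19 and 0 past 2-fold. Xbp1, a factor of secretory cells that responds to load on the endoplasmic reticulum, was the most abundant with 190.8 and 163.4 FPKM. Sox10, a factor known from acinar and myoepithelial cells of the salivary gland, had 1.95 and 1.05 FPKM, a difference of -0.53. Etv5, which acts downstream of FGF signals, had 14.5 and 10.7 FPKM, a difference of -0.41. Over all expressed genes, of which 53.7% had a lower value, the median difference was -0.01. The count of lower factors includes small differences, such as those of Ehf (-0.01), Pax9 (-0.06) and Runx1 (-0.06), so it depends on the scaling. With both ages scaled to equal sums without small RNA genes, the median of these factors was -0.10 and that of all expressed genes 0.07.

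Aqp5, the apical water channel through which acinar cells release fluid, lies on chromosome 15 from 99591028 to 99594829. Its value was 13.5 FPKM in younger and 8.69 FPKM in older mice, 1.55-fold lower, a log2 difference of -0.58. Aqp2 and Aqp6, its neighbours on the chromosome, were listed at 0 at both ages. Of 9 other aquaporin genes, 3 were expressed, and their differences ran from -0.04 to 0.04. The most abundant of them, Aqp3, a channel for water and glycerol in stratified epithelium, had 437.6 and 440.5 FPKM. Aqp5 thus had the largest difference among the 4 expressed aquaporins, at a level far under that of Aqp3.

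The remaining machinery of primary saliva, in which chloride enters through Slc12a2 and leaves through the calcium-activated channel Ano1, did not share a direction. Of 20 listed genes, 16 were expressed, 9 of them lower and 7 higher in older mice, with a median difference of -0.06 and 0 past 2-fold. Over the genes that averaged 5 FPKM or more the median was 0.00, and with both ages scaled to equal sums without small RNA genes it was 0.01. Slc12a2 had 40.7 and 34.9 FPKM and Ano1 12.2 and 13.8 FPKM. The largest differences were those of Atp1b1, a sodium pump subunit, with 37.8 and 27.3 FPKM, and of the chloride channel gene Cftr, with 5.78 and 4.22 FPKM. Chrm3 and Chrm1, the muscarinic receptors that drive secretion, were under 1 FPKM, with 0.674 and 0.204 FPKM at 2 months.

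Amy1, the gene of salivary and liver alpha-amylase, lies on the minus strand of chromosome 3 from 113555952 to 113577750. Its value was 2.72 FPKM in younger and 1.73 FPKM in older mice, 1.57-fold lower, a log2 difference of -0.45. A pseudocount of 0.1 FPKM gave -0.62. Amy2a5 and Amy2b, the amylase genes typical of the pancreas, were listed at 0 at both ages, although Amy1 and Amy2a5 have a coding identity of 89.9%. Amy1 has separate promoters for strong expression in the parotid gland and weak expression elsewhere, and which of them was used cannot be read from a value per gene. Products of the pancreas were at or near 0, with 7 of 11 listed genes at 0 and a sum of 1.04 and 0.795 FPKM.

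Smgc, Bpifa2 and Pip are abundant products of the large salivary glands, and their values were low at both ages. Smgc, the gene of submandibular gland protein C, had 0.188 and 0.155 FPKM. It lies on chromosome 15 from 91838328 to 91861435, in the locus of the gel-forming mucin gene Muc19, with which it is known to share sequence and which had 1.10 and 0.863 FPKM. Bpifa2, the parotid secretory protein gene on chromosome 2 from 154008276 to 154016073, had 0.0948 and 0.0710 FPKM. Pip, the prolactin-induced protein gene on chromosome 6 from 41847549 to 41852065, had 0.0356 and 0.0387 FPKM. At such levels and with depth unknown, neither a difference between the ages nor an absence can be read. Their log2 differences of -0.04, -0.03 and 0.00 are held near 0 by the pseudocount.

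Around Bpifa2 the table gave the same low level. Bpifa6, Bpifb4, Bpifb3 and Bpifb6, the genes of this family within 100 kb, were all under 0.5 FPKM. Other secreted products of salivary acini were split. Of 19 listed genes, 14 averaged under 1 FPKM, 5 of them listed at 0, among them Smr2, Prol1 and Prh1, which are products of the submandibular, sublingual or parotid glands. The other 5 had lower values in older mice, with a median difference of -0.21 and 0 past 2-fold. Ltf, the iron-binding lactoferrin made by many secretory epithelia, had 2144 and 2016 FPKM, and Bpifb2 had 18.5 and 12.7 FPKM, a difference of -0.51. Lyz1 had 24.99 and 21.15 FPKM. The salivary acinar markers used here are members themselves, so they are no separate check. Of them Dcpp1, Aqp5 and Amy1 were expressed, while Bhlha15, Smgc, Bpifa2 and Pip averaged under 1 FPKM.

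Counted over the list, 6 of the 10 members were expressed. Of these 6, 5 had a lower value in older mice, where 53.7% of all expressed genes had one, and 1, Sbpl, was at least 2-fold lower on the log2(FPKM + 1) scale. Of all 12652 expressed genes 1.04% were at least 2-fold lower, 0.561% at least 2-fold higher and 1.6% either. At 1.5-fold the members past the threshold were Sbpl downwards and Dcpp2 upwards, where 1.72% of all expressed genes were lower, 1.05% higher and 2.77% either. Aqp5, with -0.58, lay just short of it. This count depends on the pseudocount, since with 0.1 FPKM the differences of Aqp5 (-0.63), Amy1 (-0.62) and Dcpp3 (-0.60) passed 1.5-fold too, which made 4 members lower, where 2.17% of all expressed genes were. The median difference of the 6 was -0.50, with a range of -2.09 to 0.80. The quartiles over all expressed genes were -0.10 and 0.08. In order of difference Sbpl was 72nd from the bottom of all expressed genes, Aqp5 220th, Dcpp3 229th, Amy1 320th and Dcpp1 612th, and Dcpp2 was 96th from the top. Summed over the 10 members, there were 202.1 FPKM in younger and 74.8 FPKM in older mice, of which Sbpl made up 72.6% and 45.2%. Without Sbpl the sum was 55.3 and 41.0 FPKM, 1.35-fold lower. Since the members were chosen with results known, their counts are no support for a direction.

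The genes nearest to the members in function, products of the serous lingual glands, had larger differences than all members but Sbpl. Of 4 listed, Car6 was listed at 0 and the other 3 were at least 2-fold lower at 6 months. Lipf, the gene of lingual and gastric lipase, had 83.7 and 14.7 FPKM, 5.69-fold lower. Dmbt1, a scavenger receptor protein first described from von Ebner glands as ebnerin, had 302.0 and 112.7 FPKM, 2.68-fold lower, a log2 difference of -1.41. Bpifb1, known from minor salivary glands of the tongue, had 28.6 and 10.6 FPKM, 2.71-fold lower. Sbpl, at 4.34-fold, lay within the range of these 3 genes, and the Dcpp sum, Aqp5 and Amy1 lay outside it. These lists too were chosen with earlier results known.

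Products of mucous cells differed less. Of 4 listed genes, 3 were expressed and all 3 had lower values in older mice, with 0 past 2-fold. Agr2, a disulfide isomerase needed for mucin production, had 55.25 and 34.98 FPKM, Tff2, a peptide secreted with mucins, had 52.0 and 38.7 FPKM, and Muc5b had 20.1 and 18.2 FPKM. Salivary duct products were scarce, with Klk1 at 0.687 and 0.568 FPKM and Egf at 0.867 and 0.833 FPKM. Keratins Krt19 and Krt7 of the duct list, which taste and other epithelial cells also express, had 308.3 and 200.8 FPKM in younger and 262.1 and 167.5 FPKM in older mice. Myoepithelial markers had a sum of 4.66 and 4.38 FPKM.

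**Figure D4:**
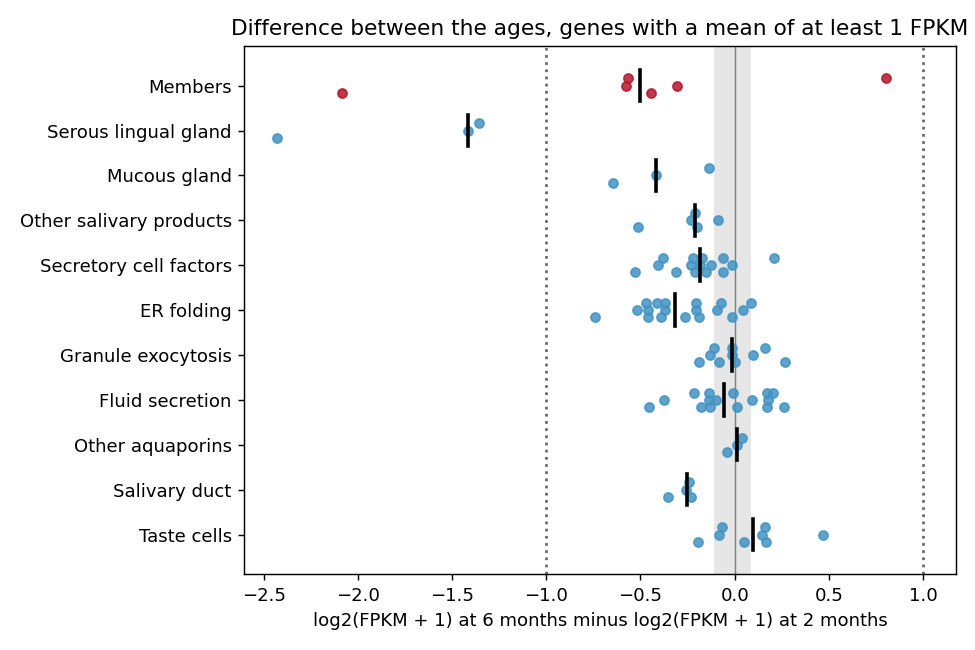
Difference of log2(FPKM + 1), 6 minus 2 months (horizontal axis), of the members (red) and of genes of 10 lists (blue) that were expressed, with list medians as black bars, the quartiles of all expressed genes as a grey band and 2-fold as dotted lines. Sbpl and the 3 serous lingual gland genes lie left of the dotted line at -1, the endoplasmic reticulum list has a median of -0.32, and exocytosis genes have a median of -0.01 (0.08 with the ages scaled to equal sums).

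Genes that fold and export secreted proteins were mostly lower as well. In a list of 18 genes of the endoplasmic reticulum, all expressed, 16 had lower values in older mice, with a median difference of -0.32 and 0 past 2-fold. The most abundant, the chaperone gene Calr, had 441.0 and 331.2 FPKM. Sdf2l1, a partner of the chaperone BiP, had the largest difference, with 26.9 and 15.7 FPKM (-0.74), followed by the disulfide isomerase gene Pdia6 with 110.3 and 76.6 FPKM (-0.52). Granule exocytosis genes did not share this. Of 13 listed, 10 were expressed, 6 lower and 4 higher, with a median of -0.01, which was 0.08 with the ages scaled to equal sums. Vamp8, a vesicle protein of exocrine granules, had 206.4 and 194.8 FPKM, and Rab3d, a small GTPase of secretory granules, had 66.5 and 80.2 FPKM. Copz2, a coat protein gene of Golgi vesicles, had 3.36 and 2.82 FPKM. Most of these genes act in every secretory or epithelial cell and are not particular to acini.

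Taste cell markers were present at both ages. The 8 listed genes had a sum of 267.9 and 262.6 FPKM, none of the 8 at 0, with a range from 4.23 FPKM for Car4 to 84.7 FPKM for Gnat3 (gustducin) at 2 months. Their median difference was 0.10, and the largest was that of the sweet and umami receptor gene Tas1r3 (0.47), while Entpd2, a marker of glia-like taste cells, had -0.19. The summed level of the serous lingual gland list was 414.4 FPKM in younger and 138.0 FPKM in older mice. The other expressed products of salivary acini and mucous cells were lower too, by less. They ran from 1.06-fold for Ltf (2144 and 2016 FPKM) to 1.58-fold for Agr2 (55.25 and 34.98 FPKM). Between these lay Muc5b with 20.1 and 18.2, Lyz1 with 24.99 and 21.15, Tff2 with 52.0 and 38.7 and Bpifb2 with 18.5 and 12.7 FPKM. The part of gland tissue in the values of Sbpl, Aqp5, Amy1 and the Dcpp genes was not tested. Salivary glands of mice are known to differ in secretory products between the sexes, and the sex of the mice is not given in the sources used here. The Y-linked genes Eif2s3y and Ddx3y had 11.7 and 3.76 FPKM in younger and 21.6 and 6.57 FPKM in older mice, and Xist had 42.6 and 32.3 FPKM. The part of sex in the members' values was not tested.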

How the data were processed

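RNA of isolated CV/Fol taste cells was sequenced from 3 libraries at 2 months and 3 at 6 months. According to the processing notes and the study's methods, reads were mapped to GRCm38/mm10 with TopHat2 2.0.7 and RefSeq genes were quantified with Cufflinks 2.1.1 and Cuffdiff. The authors deposited 1 FPKM value per gene and age, with no value per library and no depth. The library normalization is not given in the sources used here. The 6 month column was assigned by the letter B of the sample titles. The p-values of the authors' own comparison, also in the table, were not used, and no test was possible.

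The difference of log2(FPKM + 1), 6 minus 2 months, was computed, which understates the change of weak genes. A gene was counted as expressed when it averaged 1 FPKM or more. A 2-fold difference on this scale was the threshold. Fold values in the text are ratios of FPKM. The counting was tested on simulated data.

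Members and 14 gene lists were chosen with earlier results of these data known. From each list the text names the most abundant gene, the 2 largest differences and those past 2-fold, apart from 2 genes that are not reported here. Other named genes were chosen after their values were seen. All 10 members were matched by symbol to RefSeq promoters (GRCm38.p6) and GENCODE M21 transcripts (GRCm38). Identity was computed over positions aligned without a gap (biopython), and the printed Dcpp and Sbp sequences were aligned with MAFFT. Alternatives were a pseudocount of 0.1 FPKM, 2 scalings, other filters and a 1.5-fold threshold. Python 3.11.15, numpy 2.4.6, pandas 2.3.3, biopython 1.88 and matplotlib 3.10.9 were used.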

Additional observations from a re-analysis of the deposited data

How the results depend on the processing

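No paired analysis was possible because libraries have no columns of their own, and for the same reason no replicate could be left out. With no replicate error, a log2 difference was taken as moved when it shifted by 1.5-fold or more, and a count when it changed by more than 1.5 times. The number of expressed genes at least 2-fold different was 202, and 350 at a threshold of 1.5-fold, of which 217 were lower and 133 higher. The number of members past the threshold downwards was 1 with each single choice changed, including 1.5-fold and the Dcpp genes summed. At 1.5-fold with a pseudocount of 0.1 FPKM, a pair of choices added after the data were seen, it was 4, and 459 expressed genes passed, 274 lower and 185 higher. Under the pseudocount of 0.1 FPKM and both scalings, each of the 10 members kept the sign of its difference, and Sbpl ran from -2.11 to -1.99, Dcpp3 from -0.60 to -0.47, Aqp5 from -0.63 to -0.49, Amy1 from -0.62 to -0.38, Dcpp1 from -0.32 to -0.22 and Dcpp2 from 0.80 to 1.12. Equal sums without 760 small RNA genes multiplied the 6 month values by 1.07, which put the median of all expressed genes at 0.07. Under this scaling, added for the lists after the data were seen, the medians of the fluid secretion, exocytosis and myoepithelial lists were 0.01, 0.08 and 0.03, against -0.06, -0.01 and -0.03 as deposited, and the other list medians kept their sign.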
